A study of Mus musculus with 16 samples.

Results

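The 9 genes described here carry iron into cells, store it, let it out again or govern that exit, and they were followed in the left ventricle of male C57BL/6 mice after abdominal surgery. They were picked by symbol from the 57143 genes of the deposited table: Tfrc, Steap3, Steap4, Slc11a2, Fth1, Ftl1, Ncoa4, Slc40a1 and Hamp. All 9 of 9 were found, each in 1 row, and all 9 passed the filter on low values, a mean of 0.5 TPM (transcripts per length, scaled to the same total in each library) over the 16 libraries.

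Cells take up transferrin-bound iron through the transferrin receptor, reduce it in the endosome with a STEAP reductase and move it to the cytosol through the divalent metal transporter. Iron that is not used is kept inside ferritin, a shell of heavy and light chains that the cargo receptor NCOA4 delivers to the lysosome when iron is needed, and ferroportin is the route out of the cell until hepcidin binds it and has it degraded. When iron is scarce, iron regulatory proteins bind hairpins called iron-responsive elements: in the 3′ UTR of the transferrin receptor mRNA they protect the transcript, and in the 5′ UTR of ferritin and ferroportin mRNAs they block translation. Heart muscle depends on this traffic for its respiratory chain and is known to be harmed by both too little iron and too much.

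Libraries were labelled 0h, 3h, 24h and 7d after the operation, which was done under sevoflurane, with 4 libraries at each time. All 4 groups, 0h included, carry the same label of surgery, and the labels give no ages and do not say that each library is a separate mouse, so p-values measure the spread between these libraries. Total counts ran from 8.31 to 12.6 M (mega) at 0h, 9.06 to 9.66 M at 3h, 9.11 to 11.3 M at 24h and 10.3 to 12.9 M at 7d. The summed level of 8 ventricular muscle markers was 69445 to 72585 TPM at 0h, 67122 to 72440 TPM at 3h, 58710 to 67337 TPM at 24h and 59855 to 80168 TPM at 7d. Every 24h library was thus below every 0h library. Of these markers, Actc1 measured 13032 to 15946 TPM at 0h and 4829 to 9276 TPM at 24h. By the edgeR test described below, 1 of the 8 was lower and 0 higher at 24h against 0h, with a median log2 fold change of 0.164. RNA was taken from whole tissue, where fewer cells of a type and less RNA per cell cannot be told apart.

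The hairpins are shown because their place differs, the 3′ UTR in Tfrc and the 5′ UTR in Fth1, Ftl1 and Slc40a1. At 24h against 0h Tfrc fell and those 3 rose. The part of the hairpins in these levels was not tested. GENCODE M21 transcripts (GRCm38) of 21901 protein-coding genes were searched on the transcribed strand for a C, 5 bases, the loop CAGTGN and 5 bases that pair with the first 5, G-T pairs allowed. The unpaired C and the loop are in capitals, 5′ to 3′, in DNA letters.
Fth1, 5′ UTR, chr19:9982732-9982761, + strand: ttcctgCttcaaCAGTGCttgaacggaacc
Ftl1, 5′ UTR, chr7:45459778-45459807, - strand: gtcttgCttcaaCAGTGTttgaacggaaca
Slc40a1, 5′ UTR, chr1:45925464-45925493, - strand: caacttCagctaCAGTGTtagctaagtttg
Tfrc, 3′ UTR, chr16:32631219-32631248, + strand: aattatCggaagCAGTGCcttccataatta
Tfrc, 3′ UTR, chr16:32631598-32631627, + strand: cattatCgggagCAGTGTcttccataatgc
Tfrc, 3′ UTR, chr16:32631663-32631692, + strand: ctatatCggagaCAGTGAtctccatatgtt
Tfrc, 3′ UTR, chr16:32631710-32631739, + strand: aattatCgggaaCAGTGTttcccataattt
Both ferritin chains and ferroportin held 1 match each in the 5′ UTR, where 31 of the 21901 genes (0.142%) had one. Tfrc held 4 matches in the 3′ UTR, where 129 genes (0.589%) had at least 1. Steap3, Steap4, Slc11a2, Hamp and Ncoa4 held none with these letters. A match is a description of the sequence and not a measured binding site.

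Transcripts of the ferritin chains, ferroportin and hepcidin were higher and those of the transferrin receptor and NCOA4 lower at 24h than at 0h. Of the 9 genes, 6 were thus called at 24h against 0h by edgeR's quasi-likelihood test at an adjusted p under 0.05, Fth1, Ftl1, Slc40a1 and Hamp higher and Tfrc and Ncoa4 lower. Hamp entered the test only through its 3h and 24h libraries, where it is high, so 5 of the 8 other genes is the count to set beside the background. Over all 16866 genes tested 17.4% were called in that comparison, with 1552 higher and 1381 lower. The 9 were chosen with earlier results of these data known, so setting their count beside that share is a description and no independent test. The median log2 fold change (log2FC below) was -0.01 over all genes. Over the 9 it was 0.34 with Hamp (4.14) counted, and the 8 other genes ran from -1.94 to 0.96, with both signs. At 7d against 24h, 4 of the 9 were called, Tfrc higher and Ftl1, Slc40a1 and Hamp lower, where 8.08% of all genes were called. There too Hamp is to be left out when the count is set beside that share. At 7d against 0h none of the 9 was called and 0.86% of all genes were. In that last comparison Fth1 was the 1 gene of the 9 with an unadjusted p below 0.05, and it was the 1 gene of the 9 that DESeq2 called. Myl7, an atrial transcript, differed between the 24h libraries and was higher in most of them than in any 0h library. With Myl7 added as a covariate, which thus overlaps with time, Slc40a1 was the 1 gene of the 9 still called at 24h against 0h. Under that covariate the log2FC was 0.88 for Fth1, 0.87 for Ftl1 and -1.27 for Tfrc, in place of 0.85, 0.92 and -1.94 without it. In the comparisons against 0h the control libraries are shared.

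**Figure D1:**
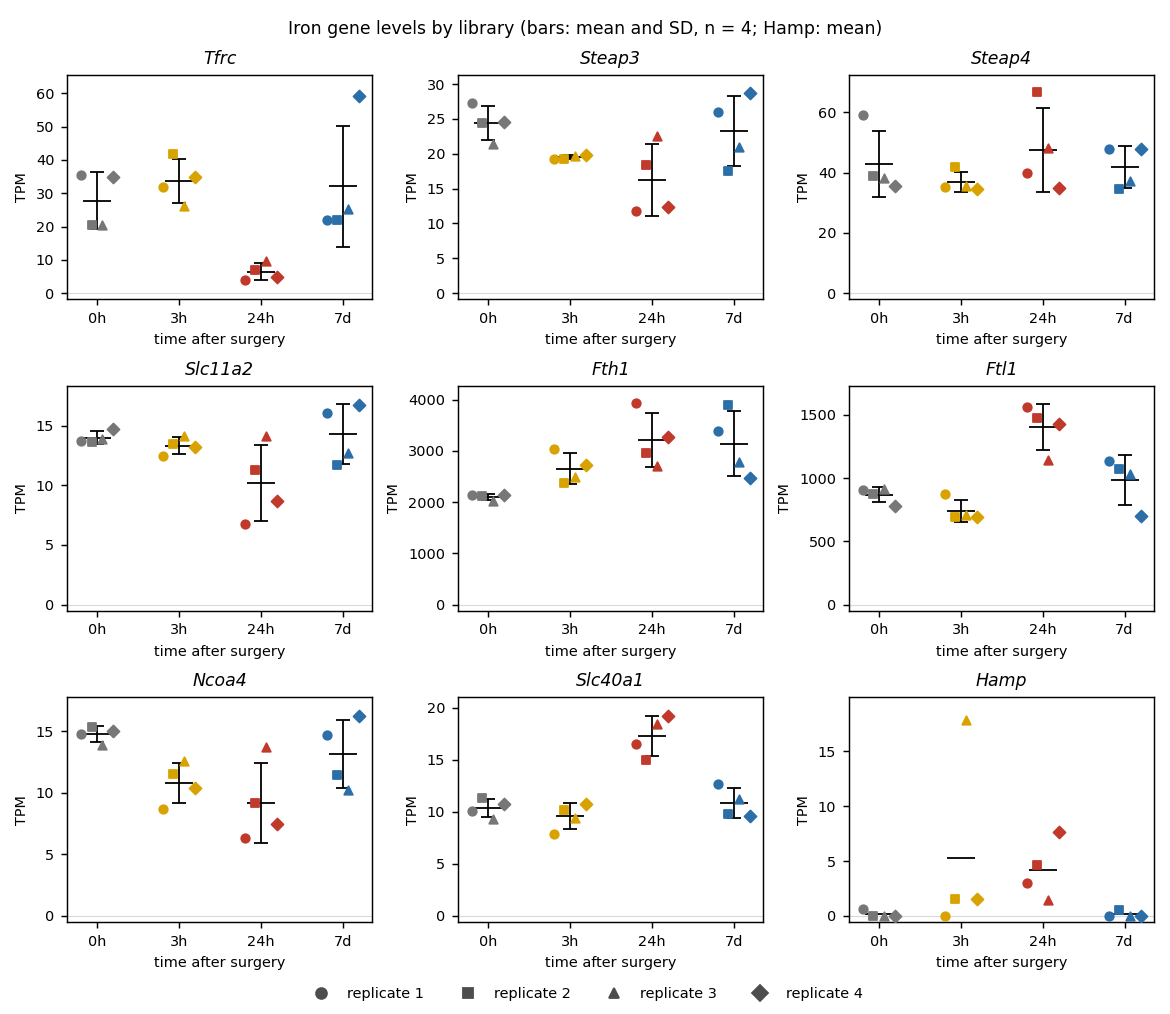
Level in TPM of each of the 9 genes (one panel each, linear axes with different scales) in every library at 0h, 3h, 24h and 7d after surgery; marker shapes stand for replicates 1 to 4, horizontal bars for the mean and vertical bars for the SD (n = 4, omitted for Hamp). Tfrc at 24h, between 3.89 and 9.68 TPM, lies below every library of the other times, and Slc40a1 at 24h, between 15.0 and 19.2 TPM, lies above them.

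Of the 4 uptake genes, the one called was Tfrc, the transferrin receptor (ENSMUSG00000022797; GRCm38 chromosome 16, 32608920 to 32632794, + strand). Replicates 1 to 4 had 35.5, 20.4, 20.5 and 34.9 TPM at 0h and 32.0, 41.8, 26.05 and 34.9 TPM at 3h. At 24h it measured 3.89, 7.00, 9.68 and 4.92 TPM, and at 7d 21.9, 22.05, 25.3 and 59.2 TPM. All 4 libraries at 24h were below all 12 others, and the other 3 times overlapped. Tfrc was 0.260-fold at 24h against 0h (log2FC -1.94, SE 0.37, adjusted p = 0.00376), lower in 4 of 4 libraries. It was also lower at 24h than at 3h (log2FC -2.40, adjusted p = 0.00188). At 7d it was 4.71-fold the level at 24h (log2FC 2.24, SE 0.37, adjusted p = 0.00252). The 7d mean, 32.1 ± 18.1 TPM, rests in part on replicate 4, and without it the log2FC at 7d against 0h was -0.16 in place of 0.29, neither of them called.

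Steap3 and Steap4 encode metalloreductases, Steap3 being the main ferrireductase of the transferrin endosome in red cell precursors and Steap4 a reductase abundant in fat and liver. Slc11a2 encodes the divalent metal transporter DMT1. None of these 3 was called in any comparison. Steap3 (ENSMUSG00000026389; chromosome 1, 120190757 to 120272705, - strand) ranged from 21.45 to 27.3 TPM at 0h, 19.2 to 19.9 TPM at 3h, 11.7 to 22.6 TPM at 24h and 17.5 to 28.7 TPM at 7d. Slc11a2 (ENSMUSG00000023030; chromosome 15, 100387898 to 100425072, - strand) ranged from 13.6 to 14.7 TPM at 0h, 12.4 to 14.1 TPM at 3h, 6.76 to 14.1 TPM at 24h and 11.7 to 16.8 TPM at 7d. For both genes 24h replicate 3 was inside the 0h range, while the other 3 libraries were below every 0h library. On TPM the 3h libraries of Steap3 were also below every 0h library, while on the scaled log2 CPM behind the test the 2 times overlapped (log2FC -0.14, adjusted p = 0.587). At 24h against 0h the log2FC of Steap3 was -0.40 (SE 0.14, adjusted p = 0.0517) and that of Slc11a2 -0.27 (SE 0.14, adjusted p = 0.184). Without 24h replicate 3 both were called, Steap3 at -0.55 (adjusted p = 0.004) and Slc11a2 at -0.42 (adjusted p = 0.0231). Slc11a2 shares 402 exonic bases with Gm5475 on the opposite strand.

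Steap4 (ENSMUSG00000012428; chromosome 5, 7960457 to 7982213, + strand) had the highest mean TPM of the 4 uptake genes, 42.3 TPM over the 16 libraries, and the least ordered profile. It ranged from 35.4 to 59.1 TPM at 0h, 34.7 to 41.9 TPM at 3h, 35.0 to 66.7 TPM at 24h and 34.6 to 48.0 TPM at 7d. The 4 times overlapped. The log2FC at 24h against 0h was 0.34 (95% interval 0.06 to 0.63, adjusted p = 0.0996), and without 0h replicate 1, the highest 0h library, it was 0.51 and called (adjusted p = 0.0229). Its window of 300 bases around the gene's start in RefSeq (GRCm38.p6) held a STAT element, spelled TTCNNNGAA and searched on both strands, 116 bases before the start. Such an element was in 8.3% of 32851 windows.

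Both ferritin chains were abundant transcripts of the ventricle. Fth1 encodes the ferritin heavy chain, which oxidises iron as it enters the shell (ENSMUSG00000024661; chromosome 19, 9980598 to 9985098, + strand). It ranked 39th and Ftl1 152nd among all genes by mean TPM over the 16 libraries. Fth1 measured 2143, 2121, 2015 and 2131 TPM in the 0h libraries and 3044, 2367, 2480 and 2718 TPM in the 3h libraries. It measured 3928, 2959, 2709 and 3273 TPM in the 24h libraries and 3391, 3894, 2783 and 2475 TPM in the 7d libraries. All 12 libraries after 0h were above all 4 at 0h, whose SD was 58.8 TPM on a mean of 2103 TPM. The 3 later times overlapped each other.

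The rise of Fth1 passed the test at 24h against 0h, at 1.80-fold (log2FC 0.85, SE 0.17, adjusted p = 0.00198). At 3h against 0h the log2FC was 0.53 (SE 0.17, adjusted p = 0.0705) and at 7d against 0h it was 0.67 (SE 0.17, adjusted p = 0.0558). DESeq2, a fit of all genes with any count, and a fit of the compared groups alone put both past the threshold, with adjusted p from 0.000181 to 0.0283. It was not called under 14 of 17 alternatives at 3h, nor under 12 of 16 at 7d, with adjusted p up to 0.249 at 3h and 0.212 at 7d. At 7d against 24h the log2FC was -0.17 (95% interval -0.50 to 0.16, adjusted p = 0.596).

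Ftl1 encodes the ferritin light chain, which favours the growth of the iron core (ENSMUSG00000050708; chromosome 7, 45457944 to 45459884, - strand). It measured 902.7, 877.9, 917 and 779.5 TPM in the 0h libraries and 871.9, 689.2, 709.7 and 695.1 TPM in the 3h libraries. It measured 1561, 1478, 1142 and 1430 TPM in the 24h libraries and 1139, 1070, 1029 and 699.3 TPM in the 7d libraries. The 24h libraries were above all 12 others, the highest 7d library by a narrow margin, and 7d replicate 4 was below every 0h library. Ftl1 rose 1.89-fold at 24h against 0h (log2FC 0.92, SE 0.16, adjusted p = 0.000548) and 1.94-fold at 24h against 3h (log2FC 0.96, adjusted p = 0.000523). At 7d it was lower than at 24h (log2FC -0.64, SE 0.16, adjusted p = 0.0118). That last call was lost without 24h replicate 1 (adjusted p = 0.0505) and with the 7d and 24h libraries fitted alone (adjusted p = 0.0839).

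The 2 ferritin chains therefore had different profiles, Fth1 with values above 0h at all 3 later times and Ftl1 above it in every library at 24h alone. The ratio of Fth1 to Ftl1, on TPM with the table's gene lengths of 3469 and 1340 bases, was 2.20 to 2.73 at 0h, 3.43 to 3.91 at 3h, 2.002 to 2.52 at 24h and 2.70 to 3.64 at 7d. The 3h libraries did not overlap those at 0h or 24h. The summed ferritin level was 2972 ± 61.9 TPM at 0h, 3394 ± 378 TPM at 3h, 4620 ± 680 TPM at 24h and 4120 ± 789 TPM at 7d (mean ± SD, n = 4). Rows for ferritin pseudogenes and the like held few counts. Fth1-ps had 79, Fth-ps2 37, Ftl1-ps1 46, Ftl1-ps2 9 and Ftl2-ps 2 counts over the 16 libraries, against 547596 for Fth1 and 75590 for Ftl1. Ftl1 shares 355 exonic bases with Gm10252 on the opposite strand and 109 with the microRNA gene Gm22133 on its own, and the strand setting of the counts is not given in the sources used here.

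Ncoa4 encodes the receptor that takes ferritin to the lysosome for iron release (ENSMUSG00000056234; chromosome 14, 32159865 to 32179855, + strand). It measured 14.8, 15.4, 13.9 and 15.0 TPM in the 0h libraries and 8.68, 11.6, 12.5 and 10.4 TPM in the 3h libraries. It measured 6.33, 9.15, 13.7 and 7.44 TPM in the 24h libraries and 14.6, 11.5, 10.2 and 16.2 TPM in the 7d libraries. On TPM both 3h and 24h lay below 0h without overlap, 24h replicate 3 narrowly so. Levels in TPM were lower for the median gene too, with median differences from 0h of -0.192 at 24h and -0.15 at 3h on log2(TPM + 1), which the scaling behind the fold changes removes (median -0.01 and 0.003). Ncoa4 fell at 24h against 0h, to 0.707-fold (log2FC -0.50, SE 0.15, adjusted p = 0.0262). The call was lost in 5 of the 8 fits that left out 1 library: without 0h replicate 2 (adjusted p = 0.0668) or 4 (0.0637), and without 24h replicate 1 (0.102), 2 (0.0569) or 4 (0.0775). At 3h against 0h the log2FC was -0.28 (SE 0.15, adjusted p = 0.283).

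Slc40a1 encodes ferroportin, the exporter (ENSMUSG00000025993; chromosome 1, 45908068 to 45926523, - strand). It measured 10.1, 11.4, 9.34 and 10.7 TPM in the 0h libraries and 7.88, 10.2, 9.38 and 10.8 TPM in the 3h libraries. It measured 16.5, 15.0, 18.4 and 19.2 TPM in the 24h libraries and 12.7, 9.81, 11.3 and 9.56 TPM in the 7d libraries. The 24h libraries stood above the 12 others, which overlapped. Slc40a1 rose 1.94-fold at 24h against 0h (log2FC 0.96, SE 0.13, adjusted p = 4.23e-05), higher in 4 of 4 libraries. It was higher at 24h than at 3h (log2FC 0.90, SE 0.13, adjusted p = 0.000141) and lower at 7d than at 24h (log2FC -0.81, SE 0.13, adjusted p = 0.000318). At 7d against 0h the log2FC was 0.15 (95% interval -0.10 to 0.40, adjusted p = 0.61). The ratio of Tfrc to Slc40a1 on TPM was 1.80 to 3.52 at 0h, 2.78 to 4.10 at 3h, 0.235 to 0.526 at 24h and 1.72 to 6.19 at 7d. The 24h libraries had more Slc40a1 than Tfrc per length and the other 12 had more Tfrc.

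**Figure D2:**
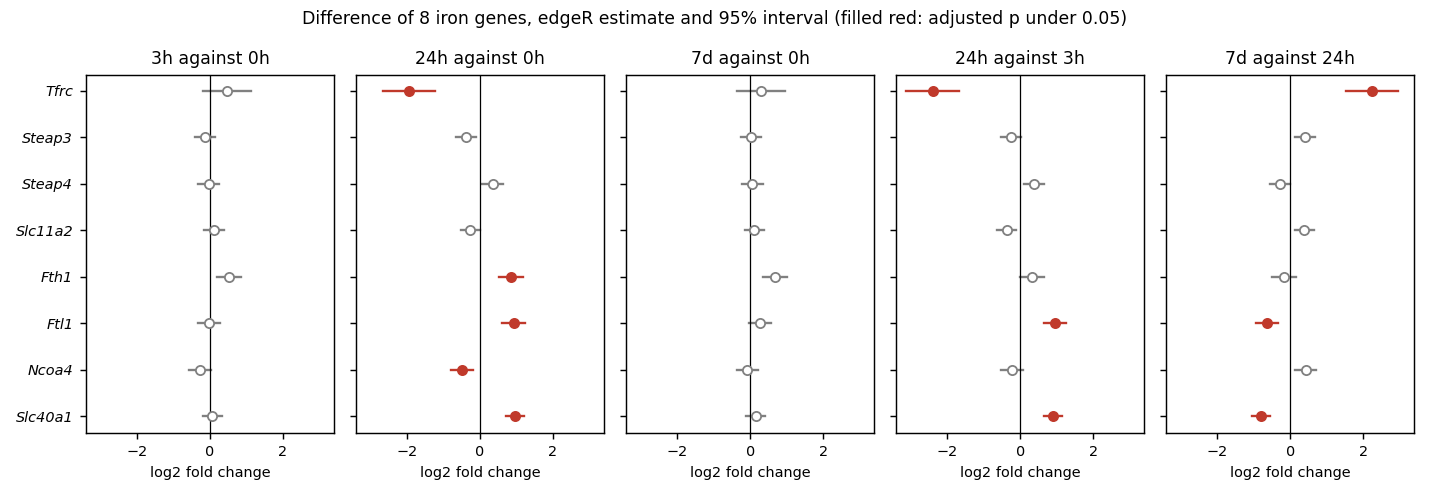
Log2 fold change of the 8 genes other than Hamp in the 5 comparisons (one panel each, all on the same axis); points are edgeR estimates and lines their 95% intervals, filled red where the adjusted p was under 0.05. Tfrc moved opposite to Ftl1 and Slc40a1 in the 3 panels that involve 24h, at -1.94, 0.92 and 0.96 at 24h against 0h.

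Hamp encodes hepcidin, a peptide hormone made chiefly by the liver and also known from heart muscle (ENSMUSG00000050440; chromosome 7, 30942368 to 30944032, - strand). Its transcription in liver is driven by bone morphogenetic protein and SMAD signals and by interleukin 6 through STAT3, so the stretch of promoter that holds both kinds of element is shown. The 150 bases before the gene's start follow, from RefSeq (GRCm38.p6), with the letters GGCGCC and the STAT element TTCNNNGAA in capitals.
Hamp promoter, chr7:30944030-30944179, - strand: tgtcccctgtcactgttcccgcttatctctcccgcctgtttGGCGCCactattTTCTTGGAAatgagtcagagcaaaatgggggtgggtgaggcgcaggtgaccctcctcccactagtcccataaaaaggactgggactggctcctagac
The 2 matches start 109 and 97 bases before the gene's start. Among the 32851 windows of all genes, 11.9% held GGCGCC and 8.3% the STAT letters on either strand. Of the 9 genes, 7 had windows in that table, 14 windows in all, and Slc40a1 and Slc11a2 had none. The windows of Fth1, Ftl1 and Steap3 held neither of these, nor the antioxidant element core TGACNNNGC (12.4% of all windows) nor the hypoxia element ACGTG (19.6%). Both windows of Tfrc held ACGTG and 1 of them GGCGCC, and 2 of the 3 windows of Ncoa4 held ACGTG, 1 of them with TGACNNNGC as well.

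Hamp was close to absent at 0h and 7d and was detected at 24h in every library. Its counts were 1, 0, 0 and 0 at 0h, 0, 2, 24 and 2 at 3h, 5, 6, 2 and 11 at 24h and 0, 1, 0 and 0 at 7d. On TPM this was 0.609, 0, 0 and 0 at 0h, 0, 1.57, 17.9 and 1.51 at 3h, 2.96, 4.63, 1.43 and 7.63 at 24h and 0, 0.561, 0 and 0 at 7d. Hamp passed the filter, at a mean of 2.42 TPM, only through the 3h and 24h libraries, so its tests of those times against 0h or 7d follow in part from how it was admitted, and they are given as a description. Of the 28 counts at 3h, 24 came from replicate 3, and the 24h libraries were above all those at 0h and 7d.

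Scaled by library totals, the 24 Hamp counts at 24h against 1 at 0h gave a ratio of 23.4 (95% interval 3.81 to 960, counting error only), and the adjusted p was 0.032. The 28 counts at 3h against 1 at 0h gave a ratio of 29.7 (95% interval 4.91 to 1214; adjusted p = 0.0474), and the 1 count at 7d against 24 at 24h a ratio of 0.0357 (95% interval 0.000868 to 0.219; adjusted p = 0.0396). At 3h, Hamp was the 1 gene of the 9 that was called, where 5.04% of all genes were, and the call was lost without any of the 4 0h libraries (adjusted p from 0.0986 to 0.121), without 3h replicate 3 (0.373) or without 3h replicate 4 (0.0576). At 24h against 0h it was lost without any of the 4 0h libraries (adjusted p from 0.069 to 0.0782) and without 24h replicate 1 (0.0531) or 4 (0.0995). At 7d against 24h it was lost in 7 of 8 such fits, the exception being that without 24h replicate 3 (adjusted p up to 0.129). Its near copy Hamp2 had 8, 6, 15 and 5 counts at 0h, 3h, 24h and 7d.

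Hamp went with some transcripts of atrial muscle across the libraries and not with others. The 3 genes most like it in log2 CPM over the 16 libraries were Myl7, the atrial light chain (Pearson's r = 0.898), Sln, sarcolipin (0.890), and Myl4, another atrial light chain (0.889). These are descriptions over libraries that share groups and scaling. Myl7 measured 0, 1.10, 9.59 and 0 TPM in the 0h libraries and 0.977, 2.73, 146 and 8.39 TPM in the 3h libraries. It measured 63.8, 126, 6.97 and 159 TPM in the 24h libraries and 0.504, 0.780, 0.844 and 0.815 TPM in the 7d libraries. The 4 libraries with the most Hamp were the 4 with the most Myl7. All 7 atrial markers were in the table, with a summed level of 465 to 1475 TPM at 0h, 264 to 749 TPM at 3h, 489 to 1017 TPM at 24h and 542 to 2771 TPM at 7d, and Bmp10 was at 0 throughout 0h. Nppa made up most of these sums. It was highest in 7d replicate 2 (2760 TPM) and 0h replicate 3 (1450 TPM), where Hamp had 1 and 0 counts. Nr2f2 ran from 6.25 to 8.42 TPM at 0h and from 4.95 to 8.08 TPM at 24h. Dkk3 was highest in the 4 libraries with the most Hamp. Of the 6 tested, 3 were called higher and 0 lower at 24h against 0h. Sln passed the filter on low values only through its 3h and 24h libraries, so its test follows in part from how it was admitted. With Myl7 as a covariate the log2FC of Hamp at 24h against 0h was 0.59 (adjusted p = 0.828), in place of 4.14 without it. As Myl7 was the gene most like Hamp in these same libraries, a smaller value follows in part from that likeness. The part of atrial transcripts in the Hamp result was not tested.

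Hepatocyte transcripts also differed between these libraries. The summed level of 12 hepatocyte markers was 20.6, 135, 130 and 48.3 TPM in the 3h libraries and 30.05, 24.7, 7.43 and 35.2 TPM in the 24h libraries. At 24h it was highest in replicate 4 and lowest in replicate 3, as Hamp was, and the 3 other 24h libraries were above every 0h library. At 3h, replicate 2 had the highest sum with 2 counts of Hamp, and replicate 3 a similar sum with 24. Single markers differed: Alb, albumin, measured 0, 35.6, 28.5 and 5.42 TPM at 3h and at most 0.540 TPM at 24h, whereas Ttr, transthyretin, measured 11.7, 4.80, 1.24 and 9.83 TPM at 24h, against 0 to 0.842 TPM at 0h. The sums ran from 14.5 to 17.5 TPM at 0h and 10.5 to 21.8 TPM at 7d, and 5 of the markers, Serpina1c, Fgb, Fgg, Serpina1a and Mup3, were at 0 in all 0h libraries. Of the 9 tested, 5 were higher at 3h against 0h and 1 at 24h against 0h. Alb, Apoa1, Serpina1c, Fgg and Mup3 passed the filter on low values only through their 3h libraries. Their tests at 3h thus follow in part from how they were admitted, and the count at 3h is a description. The part of hepatocyte transcripts in the Hamp result was not tested.

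**Figure D3:**
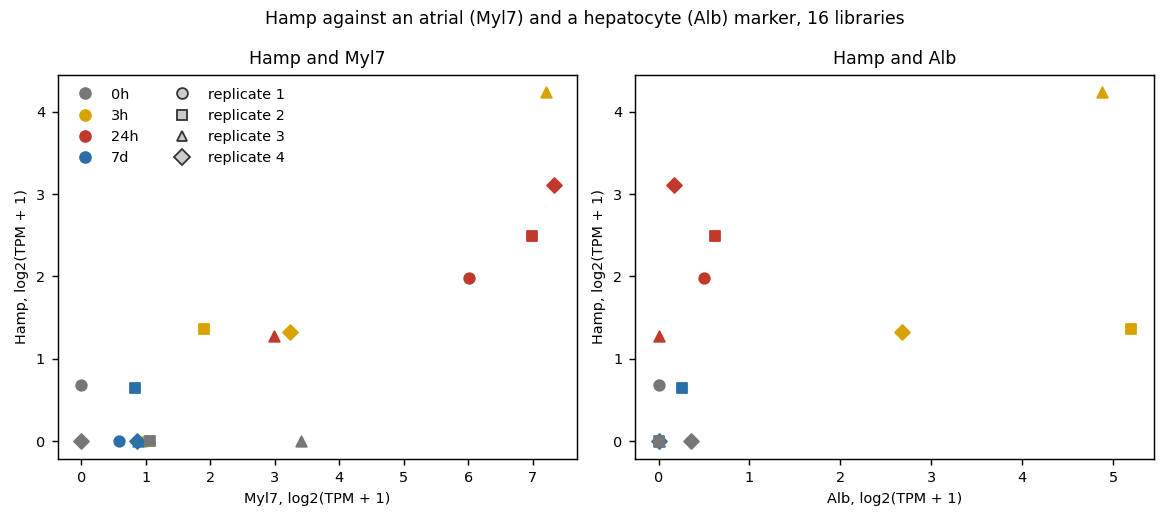
Hamp in log2(TPM + 1) on the vertical axis against Myl7 (left) and Alb (right) in log2(TPM + 1) in the 16 libraries; colours stand for time and shapes for replicate. The 4 libraries with the most Hamp, 24h replicates 1, 2 and 4 and 3h replicate 3, have Myl7 from 63.8 to 159 TPM, and Alb runs from 0.121 to 28.5 TPM in the same libraries.

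The 24h libraries were not alike. Replicate 3, with Myl7 at 6.97 TPM and so inside the 0h range, was the 24h library closest to the 0h mean for Tfrc, Steap3, Slc11a2, Fth1, Ftl1 and Ncoa4. In log2 CPM its difference from the 0h mean was -1.37 for Tfrc, 0.46 for Fth1, 0.49 for Ftl1, 0.92 for Slc40a1 and -0.02 for Ncoa4. The 3 other 24h libraries ran from -2.44 to -1.83 for Tfrc, 0.58 to 1.22 for Fth1, 0.86 to 1.17 for Ftl1, 0.62 to 1.25 for Slc40a1 and -0.90 to -0.59 for Ncoa4. Replicate 3 thus lay outside the 0h libraries for Tfrc, Fth1, Ftl1 and Slc40a1, and of these 4 genes Slc40a1 was the one for which it sat among the other 24h libraries. In 3h replicate 3, with Myl7 at 146 TPM, levels were 26.05 TPM for Tfrc, 709.7 TPM for Ftl1 and 9.38 TPM for Slc40a1. The 24h libraries had at most 9.68 TPM for Tfrc and at least 1142 and 15.0 TPM for the other 2. As 3h replicate 3 is 1 library of another time, Myl7 and time cannot be told apart by it. The part of atrial transcripts in these levels was not tested.

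With Myl7 as a covariate, 1 of the 9, Slc40a1, was called at 24h against 0h (log2FC 0.98, adjusted p = 0.022), and over all genes 86 were called in place of 2933. The adjusted p was then 0.23 for Tfrc, 0.134 for Fth1 and 0.107 for Ftl1. When 24h was represented by its replicate 3 alone, a fit chosen after seeing the data that assumes the lone library to vary like the other groups, Slc40a1 was again the 1 gene called (log2FC 0.92, adjusted p = 0.00441), and over all genes 131 were called. Tfrc had -1.43 (adjusted p = 0.423) there. At 7d against 24h with Myl7 as a covariate, Tfrc had a log2FC of 1.56 (adjusted p = 0.326), Ftl1 -0.585 (adjusted p = 0.526) and Slc40a1 -0.83 (adjusted p = 0.0982). Tfrc, Fth1, Ftl1 and Slc40a1 kept their calls at 24h against 0h in 8 of 8 fits that left out 1 library.

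**Figure D4:**
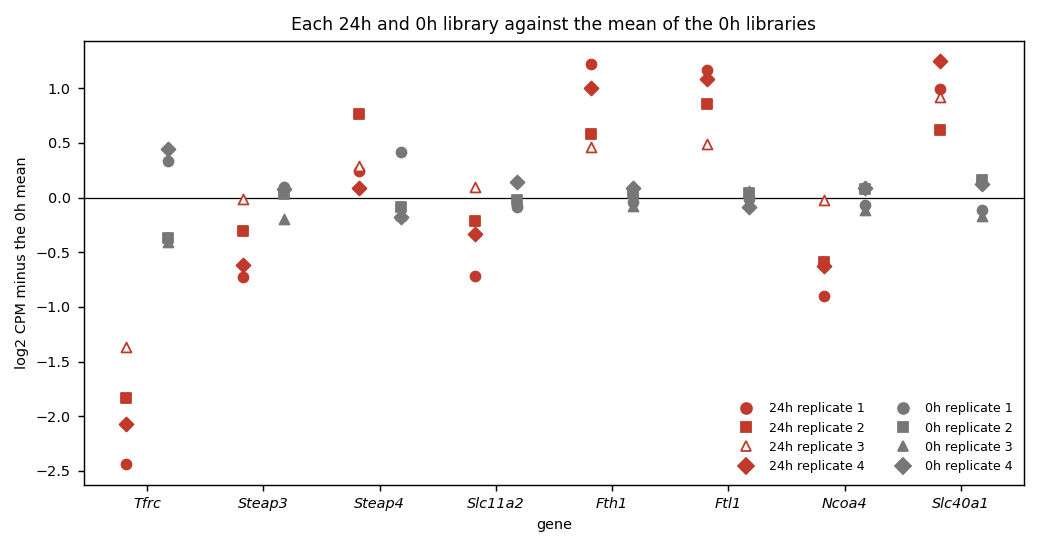
Log2 CPM minus the mean of the 4 0h libraries (vertical axis) for 8 genes, with the 24h libraries in red on the left and the 0h libraries in grey on the right of each gene; shapes stand for replicates and the open triangle for 24h replicate 3. That library lies near 0 for Steap3, Slc11a2 and Ncoa4 (-0.01, 0.10 and -0.02) and among the other 24h libraries for Slc40a1 (0.92).

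Between 24h and 3h, 3 of the 9 were called, Ftl1 and Slc40a1 higher and Tfrc lower, against 7.58% of all genes, and these 3 calls held with Myl7 as a covariate. In the test of any change over time 5 of the 9 were called (Tfrc, Fth1, Ftl1, Slc40a1 and Hamp) against 20.2% of all genes. The call of Hamp follows in part from how it was admitted, so Tfrc, Fth1, Ftl1 and Slc40a1 are the ones to set beside that share. The adjusted p were 0.00337 for Tfrc, 0.0068 for Fth1, 0.000343 for Ftl1, 2.47e-05 for Slc40a1 and 0.0111 for Hamp. The other 4 had adjusted p of 0.0656 for Ncoa4, 0.0941 for Steap3, 0.115 for Slc11a2 and 0.151 for Steap4.

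Across the 16 libraries, Pearson's r of log2 CPM between members was -0.90 for Tfrc and Ftl1, -0.85 for Tfrc and Slc40a1 and 0.82 for Ftl1 and Slc40a1. Slc11a2, Steap3 and Ncoa4 went together, at 0.87 for Slc11a2 and Steap3, 0.85 for Steap3 and Ncoa4 and 0.80 for Slc11a2 and Ncoa4. These values are over libraries that share groups and scaling and carry no test. The tested genes most like Tfrc were Tmx2 (0.974), Tuba4a (0.971) and Vopp1 (0.958), and those most like Fth1 were Eif1 (0.963), Chchd7 (0.962) and Ap4s1 (0.955). Ftl1 was most like Hmgn2 (0.948), Pir (0.938) and Tprgl (0.933), and Slc40a1 most like Ephx2 (0.955), Clec18a (0.945) and Nadk2 (0.944).

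The rest of the iron and haem machinery was read from 89 other genes in 8 groups by role, of which 80 were tested. This list too was chosen with earlier results of these data known, so its shares are a description. At 24h against 0h, 18 were higher and 5 lower (28.7%, where 17.4% of all genes were called), and the median log2FC was 0.09. At 3h against 0h, 5 of the 80 were higher and 6 lower (13.8%, where 5.04% of all genes were called). Hpx, among the higher ones, passed the filter on low values only through its 3h libraries, so its call follows in part from how it was admitted. Among entry genes, 2 of 8 were called at 24h, both higher. Hfe, which binds the transferrin receptor, averaged 64.2 ± 5.14 TPM at 24h and 41.8 ± 1.5 TPM at 0h (n = 4 each; log2FC 0.85, adjusted p = 2.16e-05). Lcn2, a siderophore-binding acute-phase protein, averaged 56.3 ± 15.0 TPM at 24h and 3.20 ± 1.92 TPM at 0h (log2FC 4.43, adjusted p = 0.000126).

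Among the other storage genes, Tax1bp1, an autophagy receptor that works with NCOA4, was higher at 24h against 0h (log2FC 0.47, adjusted p = 0.00284), while Herc2, a ligase that turns NCOA4 over, was lower at 3h against 0h (log2FC -0.46, adjusted p = 0.0358). The 2 tested partners of ferroportin, the ferroxidases Heph and Cp, had log2FCs of -0.25 (adjusted p = 0.437) and 0.38 (adjusted p = 0.159) at 24h against 0h. Of the 5 genes of iron regulatory proteins and their turnover, Skp1 (log2FC 0.58, adjusted p = 0.00477) and Fbxl5 (0.32, adjusted p = 0.0332), parts of the ligase that degrades IRP2, were higher at 24h against 0h. Aco1, which encodes IRP1, had -0.03 (adjusted p = 0.913) and Ireb2, which encodes IRP2, had -0.27 (adjusted p = 0.0548).

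Of 16 tested genes of the hepcidin axis, its near copy Hamp2 included, 4 were lower and 0 higher at 3h against 0h, where edgeR called 3.18% of all genes lower and 1.86% higher. They were the bone morphogenetic protein and activin receptors Bmpr2 (log2FC -0.52, adjusted p = 0.00898), Acvr1 (-0.61, adjusted p = 0.0371) and Acvr2a (-0.65, adjusted p = 0.0104), and the inhibitor Smad7 (-0.95, adjusted p = 0.00732). At 24h against 0h 1 was higher, Atoh8 (0.65, adjusted p = 0.0295), and 1 lower, Smad5 (-0.33, adjusted p = 0.0305), a smaller share than the 17.4% of all genes.

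Among haem genes, Hmox1, haem oxygenase 1, which frees iron from haem, averaged 137 ± 86.4 TPM at 24h and 27.7 ± 6.27 TPM at 0h (log2FC 2.57, adjusted p = 0.0136). Flvcr2, a transporter of the haem exporter family, was higher at both 3h (log2FC 1.24, adjusted p = 0.00898) and 24h (1.02, adjusted p = 0.0113) against 0h. Hpx, haemopexin, a plasma protein made by liver, measured 2.93 ± 2.44 TPM at 3h, against 0.0416 TPM at 0h (adjusted p = 0.00589), in libraries that also held the hepatocyte transcripts given above. Hpx passed the filter on low values only through its 3h libraries, so this test follows in part from how it was admitted and is given as a description. Lrp1, the receptor that takes up haem bound to haemopexin, was lower at 3h against 0h (-0.47, adjusted p = 0.0358). Alas1, the rate-limiting enzyme of haem synthesis outside red cells, fell to 28.9 ± 12.8 TPM at 24h, against 67.9 ± 7.55 TPM at 0h (-1.05, adjusted p = 0.0015). Urod was higher at 24h against 0h (0.61, adjusted p = 0.00382), and Tmem14c, a carrier of a haem precursor, was lower at 24h than at 3h (-0.51, adjusted p = 0.00469).

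Of 22 tested genes of mitochondrial iron and iron-sulfur clusters, 8 were higher and 2 lower at 24h against 0h, where 9.2% of all genes were higher and 8.19% lower. The higher ones included Hscb, a chaperone of cluster transfer (log2FC 0.71, adjusted p = 0.00452), and Iba57, which takes part in cluster assembly (0.41, adjusted p = 0.0447). Bola1 was among them as well (0.69, adjusted p = 0.00591). Abcb10, a transporter of the inner mitochondrial membrane, was lower (-0.46, adjusted p = 0.00796).

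**Figure D5:**
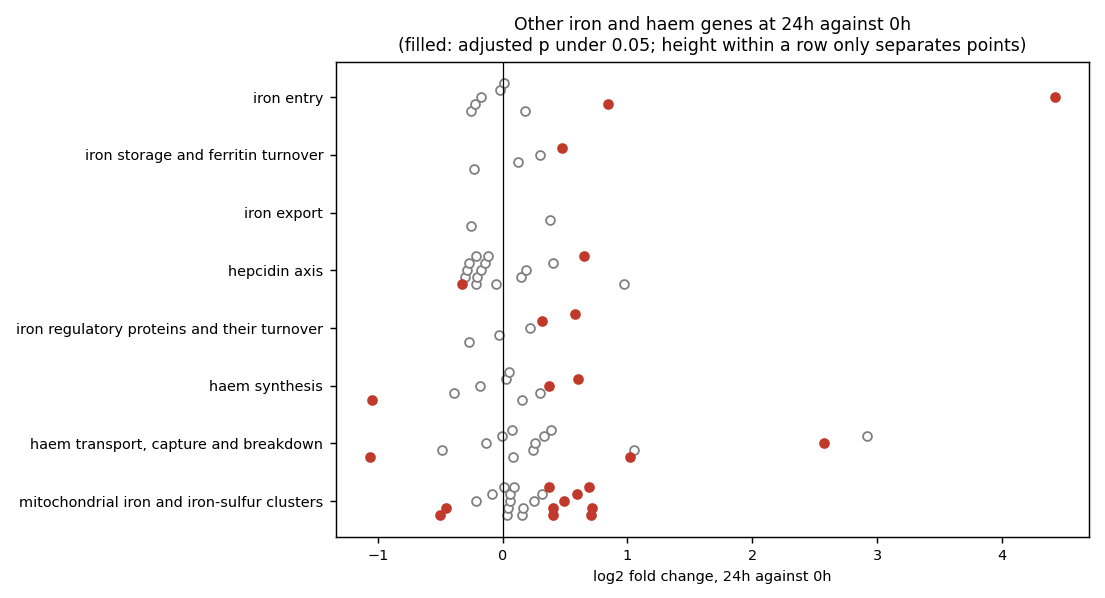
Log2 fold change at 24h against 0h (horizontal axis) of the 80 tested iron and haem genes outside the 9, in rows by role; each point is a gene, filled red where edgeR's adjusted p was under 0.05. Filled points lie mostly to the right, 18 higher and 5 lower, with Lcn2 farthest right at 4.43.

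Other cell types that handle iron were read from marker lists. Erythroid markers, 10 of 10 in the table, summed to 148 to 1423 TPM at 0h, 386 to 1047 TPM at 3h, 471 to 1262 TPM at 24h and 184 to 861 TPM at 7d. Epb42 was at 0 in all 0h libraries, and the summed levels of the 4 times overlapped. Resident macrophage markers, 11 of 11, summed to 772 to 964 TPM at 0h and 623 to 955 TPM at 24h, with 0 higher and 1 lower of 11 at 24h against 0h. Fibroblast markers, 7 of 7, summed to 640 to 963 TPM at 0h and 624 to 741 TPM at 24h, with 1 higher and 3 lower of 7 at 24h against 0h. In the same comparison 1 of 6 monocyte and 1 of 5 adipocyte markers were higher, and 1 of 7 endothelial and 1 of 8 ventricular muscle markers were lower. Neutrophil markers, 11 of 11, summed to 11.1 to 13.2 TPM at 0h, 148 to 571 TPM at 3h, 68.8 to 331 TPM at 24h and 17.6 to 108 TPM at 7d, with Ly6g and Ltf at 0 throughout 0h. Of the 7 neutrophil markers tested 6 were higher at 3h and 5 at 24h against 0h, where 1.86% and 9.2% of all genes were. Cxcr2 and Mmp8 passed the filter on low values only through their 3h and 24h libraries, and Ly6g, Ngp, Camp and Ltf did not pass it. These counts thus follow in part from the filter and are a description. The part of these cell types in the levels of the iron genes was not tested.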

How the data were processed

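RNA of the left ventricle was profiled in 16 libraries. Per the labels' protocols, libraries came from DNase-treated RNA and a directional kit. The submitters' processing notes name cutadapt, STAR and mm10; no source used here gives versions, how genes were counted or whether strand was used. The authors deposited raw counts, TPM and FPKM for 57143 genes, and the FPKM entered no test. Recomputing the deposited TPM from the counts and lengths gave a relative difference of at most 5.2e-15.

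Counts of the 16866 genes averaging at least 0.5 TPM went, after TMM scaling, into the quasi-likelihood F test of edgeR 4.0.16 (robust, 16 libraries in 1 fit, R 4.3.3). P-values were adjusted by Benjamini-Hochberg over all genes within a comparison, with a threshold of 0.05. DESeq2 1.42.0 and limma 3.58.1 on log2(TPM + 1) were alternatives. Log2 CPM used a prior count of 2. The fits were tested on simulated data. Members and gene lists were chosen with earlier results of these data known. Named genes were all 9 members, per role group up to 4 of smallest p among those with any change over time, and the 3 genes most like each member with such a change; Fbxl5, Heph, Cp, Aco1, Ireb2, Acvr1 and Smad5 were named after their values were seen. 1 gene of the wider list is not reported here by name. All 16 count columns were mapped to samples by time and number, their prefix (PMI) differing from that of the sample titles (MINS). The table's name points to an Ensembl release on a later mouse build than mm10; it holds no coordinates, and those printed are GRCm38 (GENCODE M21).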

Additional observations from a re-analysis of the deposited data

Results flagged for a closer look

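In 7 of the 36 sets of 4 libraries (9 genes at 4 times) 1 library stood far from the other 3, where chance gives about 1 in 20 for normally distributed values. Tfrc in 7d replicate 4 measured 59.18 TPM, against 21.89 to 25.33 TPM in the other 7d libraries. Ftl1 in 3h replicate 1 measured 871.9 TPM, against 689.2 to 709.7 TPM in the other 3h libraries. Steap4 stood high in 0h replicate 1, at 59.08 TPM against 35.42 to 38.83 TPM, and in 3h replicate 2, at 41.94 TPM against 34.71 to 35.57 TPM. Hamp in 3h replicate 3 measured 17.9 TPM, against 0 to 1.57 TPM in the other 3h libraries. Hamp in 0h replicate 1, at 0.6086 TPM, and in 7d replicate 2, at 0.5609 TPM, rests on 1 count each, with 0 in the other libraries of those times. A set with 1 value above 0 and the others at 0 is always flagged, so these Hamp flags are not to be set beside the chance rate.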

How the results depend on the processing

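Of the values recomputed under another setting, 636 kept their direction and side of the threshold, 51 were no longer called, 26 were newly called and 34 changed sign. Slc40a1 at 24h against 0h was called under all 17 alternatives (log2 fold change 0.682 to 1.057). Tfrc, Fth1 and Ftl1 at 24h against 0h were called under 15 of 17, the exceptions being Myl7 as a covariate and replicate 3 as the only 24h library.

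At 3h against 0h the count of members called, 1 of 9, became 3 without a filter or with the compared groups alone. It became 0 with limma on log2(TPM + 1) or log2(TPM + 0.1), with a replicate block, with Myl7 as a covariate and without 3h libraries 2 and 3. At 24h against 0h the 6 became 1 with Myl7 as a covariate or replicate 3 as the only 24h library. At 7d against 0h the 0 became 1 with DESeq2, without a filter and with the compared groups alone. At 24h against 3h the 3 became 1 with replicate 3 as the only 24h library. At 7d against 24h the 4 became 0 with Myl7 as a covariate and 1 with that only library, and for any change over time the 5 became 3 under each. When 1 library was left out in turn, the counts were 0 to 1 at 3h against 0h, 4 to 8 at 24h against 0h (4 without 0h replicate 2 or 4 or 24h replicate 1 or 4, and 8 without 24h replicate 3), 0 to 1 at 7d against 0h, 3 to 5 at 24h against 3h, 2 to 7 at 7d against 24h and 5 to 8 for any change. DESeq2 gave no adjusted p for Hamp at 3h against 0h and at 7d against 24h.

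No call changed sign. Among log2 fold changes that were not called, limma on log2(TPM + 1) and log2(TPM + 0.1) gave -0.113 and -0.124 for Slc40a1 and -0.067 and -0.072 for Slc11a2 at 3h against 0h, -0.084 and -0.088 for Steap3 and -0.016 and -0.017 for Steap4 at 7d against 0h, and 0.485 and 1.287 for Hamp at 24h against 3h. Myl7 as a covariate gave 0.007 for Steap3 and 0.042 for Steap4 at 3h against 0h. Without 3h libraries 2 and 3, Ftl1 at 3h against 0h was 0.106 and Hamp at 24h against 3h was 2.376. With replicate 3 as the only 24h library, Slc11a2 at 24h against 0h was 0.106, Fth1, Steap3 and Ncoa4 at 24h against 3h were -0.065, 0.123 and 0.261, and Fth1 and Ncoa4 at 7d against 24h were 0.215 and -0.065. With 1 library left out, values ran from -0.167 to 0.018 for Ftl1, -0.01 to 0.113 for Slc40a1 and -0.092 to 0.136 for Steap4 at 3h against 0h. At 7d against 0h they ran from -0.162 to 0.447 for Tfrc, -0.087 to 0.114 for Steap3, -0.002 to 0.226 for Steap4 and -0.187 to 0.011 for Ncoa4, and at 24h against 3h from -0.78 to 2.0 for Hamp. The cause was not tested.

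Replicate numbers did not pair the libraries: same-numbered libraries had correlations of -0.122 to 0.055 over 24 pairs and 0 libraries correlated best with their own number. A replicate block left 6 members called at 24h against 0h and 0 at 3h against 0h, where Hamp was lost, and gave 0.293 for Hamp at 24h against 3h. Over all genes, the 850 called at 3h against 0h were 1415 with DESeq2, 1786 without a filter and 3224 with the compared groups alone, and the 145 at 7d against 0h were 478, 735 and 408. Hamp rests on 54 counts in all and is limited by depth.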
